A study of Mus musculus with 36 samples.

Results

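The serum amyloid A (SAA) family of the mouse consists of 4 genes, *Saa1* (ENSMUSG00000074115), *Saa2* (ENSMUSG00000057465), *Saa3* (ENSMUSG00000040026) and *Saa4* (ENSMUSG00000040017), which were taken by symbol from the 36066 genes of a transcript table of whole mouse liver. They were chosen by symbol with their TPM (transcripts per 1000000 transcripts) in the 12 groups already known, the high TPM of *Saa1* and *Saa2* in mice with little ascorbate included. Their levels are therefore described by mouse and by group, with no test, and tests are given only for other genes of the same response.

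The liver transcriptomes came from *Gulo*-/- mice, which lack the L-gulonolactone oxidase that makes ascorbate (vitamin C), and from wild type mice, all 4 months old, fasted overnight and studied as 6 female (F) and 6 male (M) groups of 3 mice. The comparison addresses how the liver responds to low ascorbate. *Gulo*-/- mice of groups GL40, GL05 and GL01 drank water with 0.4%, 0.05% and 0.01% ascorbate, respectively, from weaning. GL00 *Gulo*-/- mice drank 0.4% ascorbate and then none over their last 4 weeks, GLR40 *Gulo*-/- mice went through such a depletion and then received 0.4% ascorbate again, and WT00 mice were *Gulo*+/+ without ascorbate in the water. The deletion was present in the whole body, so GL40, the reference for each sex here, carries it too. All comparisons within a sex share the same 3 GL40 mice, whereas females and males share no mouse. Mice are numbered within a group in order of their labels.

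Each mouse had between 18701 and 20093 genes above 0 TPM, and the TPM of each mouse summed to 1000000, so the sequencing depth behind a value is unknown. *Gulo* was measured at 144 to 269 TPM in the wild type mice and at 16.4 to 52.2 TPM in the *Gulo*-/- mice. The Y-linked *Ddx3y* was at 15.1 to 29.1 TPM in the mice of the male groups and at no more than 0.875 TPM in the females. The labels of MGLR40 mouse 3 call it both female and male, and its *Ddx3y* level was 25.4 TPM. Summed markers of hepatocytes were at 66815 to 101462 TPM in all mice, as the tissue label says. FGL40 mouse 2 stood apart by 10451 TPM of exocrine pancreas transcripts, against at most 62.2 TPM in any other mouse, and the values without it are given below.

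SAA proteins are small apolipoproteins that travel in plasma on high density lipoprotein (HDL). *Saa1* and *Saa2* are the classical acute phase genes of the hepatocyte, which switches them on when interleukin-1, tumor necrosis factor and interleukin-6 reach the liver and act through the transcription factors NF-kappa B, C/EBP and STAT3. *Saa3* is an inducible mouse gene that macrophages and adipocytes also express, and *Saa4* encodes a constitutive SAA of the liver. In mice, acute phase SAA that persists at high levels can deposit as amyloid.

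The sequences upstream of the 4 genes are shown because the inducible pair and the other members of the family differ there. All 4 genes matched the RefSeq table of promoters (GRCm38.p6), and the 200 bases before each annotated start are printed 5′ to 3′ on the strand of the gene. *Saa1* lies on the minus strand (chr7:46742981-46743180) and *Saa2* on the plus strand (chr7:46751633-46751832), and capitals mark the 5 bases in each that differ from, or have no partner in, the other. *Saa3* (chr7:46715677-46715876) and *Saa4* (chr7:46732604-46732803) are on the minus strand, and capitals mark matches to a C/EBP motif, TTNNGNAA.
Saa1: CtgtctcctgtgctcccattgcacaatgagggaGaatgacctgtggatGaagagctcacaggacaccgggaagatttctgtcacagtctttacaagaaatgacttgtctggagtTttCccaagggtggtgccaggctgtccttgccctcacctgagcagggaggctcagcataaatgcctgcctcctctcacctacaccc
Saa2: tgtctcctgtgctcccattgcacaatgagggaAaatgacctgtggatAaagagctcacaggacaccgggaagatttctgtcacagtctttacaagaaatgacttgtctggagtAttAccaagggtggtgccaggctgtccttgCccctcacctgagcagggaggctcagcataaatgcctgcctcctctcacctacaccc
Saa3: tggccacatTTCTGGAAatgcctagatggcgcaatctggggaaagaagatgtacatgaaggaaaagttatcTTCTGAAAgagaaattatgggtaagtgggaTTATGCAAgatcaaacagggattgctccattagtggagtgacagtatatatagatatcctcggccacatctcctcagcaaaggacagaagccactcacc
Saa4: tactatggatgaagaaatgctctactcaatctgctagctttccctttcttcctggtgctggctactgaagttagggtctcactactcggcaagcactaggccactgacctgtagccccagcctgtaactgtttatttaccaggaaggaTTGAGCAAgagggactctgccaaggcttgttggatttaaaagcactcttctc

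Over the 250 bases upstream of the start, *Saa1* and *Saa2* shared 238 of 251 aligned positions (94.8%), whereas *Saa1* shared 50.2% with *Saa3* and 46% with *Saa4*. The C/EBP motif, searched on both strands as were the others, matched at 2 places in *Saa1*, 1 in *Saa2*, 4 in *Saa3* and 2 in *Saa4*, and 36.8% of 32851 mouse promoters hold it over the same length. The *Saa1* match that begins 86 bases before the start covers 2 of the bases that differ in *Saa2*, which has no match there. The kappa B motif (3 G, then 5 bases of any kind, then 2 C), found in 45.8% of promoters, matched once each in *Saa1*, *Saa2* and *Saa4*, and in *Saa1* and *Saa2* it lies at the same aligned place, from 78 and 79 bases before the start, respectively. The STAT motif TTCNNNGAA, held by 7.02% of promoters, and the canonical TATA box (12.4%, searched as TATAAA) had no match in any of the 4, and no matches overlapped each other. Such matches describe the letters only.

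Levels of the family spanned a wide range over the 36 mice. The lowest and the highest TPM were 25.7 and 6834 for *Saa1*, 9.68 and 3535 for *Saa2*, 6.24 and 51.1 for *Saa3*, and 44.2 and 257 for *Saa4*. Thus the highest mouse was 266 and 365 times the lowest for *Saa1* and *Saa2*, but 8.20 and 5.82 times the lowest for *Saa3* and *Saa4*. In the 24 mice of GL05, GL40, GLR40 and WT00, the median TPM of *Saa4* (92.0) was above those of *Saa1* (52.4), *Saa2* (30.4) and *Saa3* (12.1). In FGL00, *Saa1* was the family member with the highest TPM in all 3 mice, and it ranked 73, 59 and 23 among all genes of mice 1, 2 and 3.

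**Figure D1:**
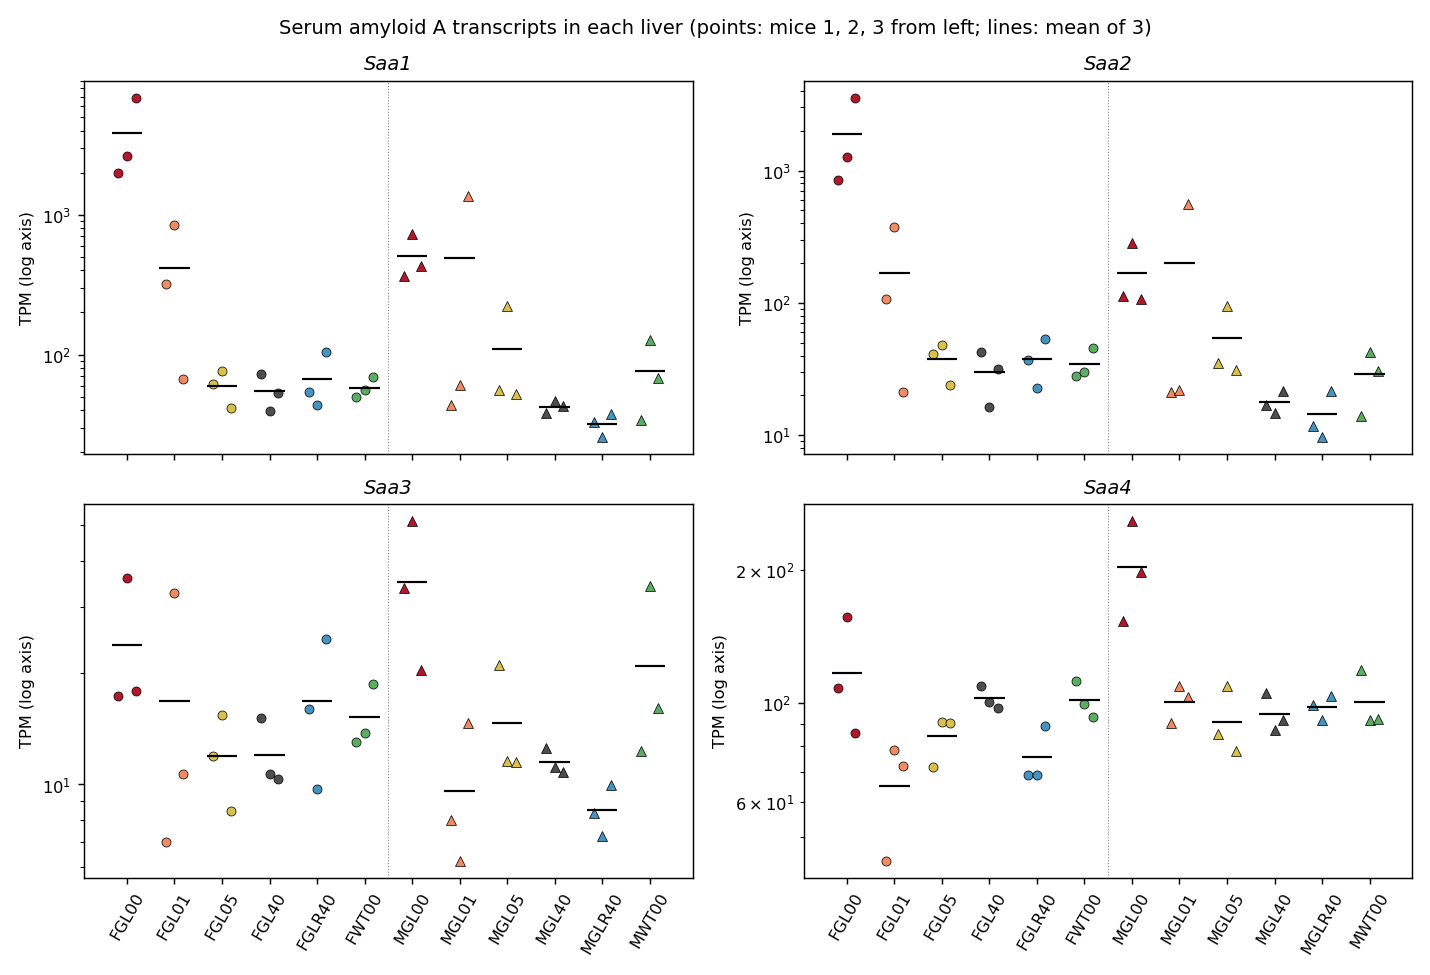
TPM of *Saa1*, *Saa2*, *Saa3* and *Saa4* (log axis) in each of the 36 mice by group, females and males, with points for mice and bars for group means. *Saa1* and *Saa2* reach their highest values in FGL00 (1998 to 6834 TPM for *Saa1*), and mice of the GL01 groups are spread from 43.6 to 1355 TPM of *Saa1*, whereas *Saa4* stays between 44.2 and 257 TPM.

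*Saa1* was highest in females without ascorbate. It was at 1998, 2637 and 6834 TPM in the 3 FGL00 mice and at 72.5, 39.7 and 52.8 TPM in the 3 FGL40 mice. Every FGL00 mouse was above every FGL40 mouse, with means of 3823 ± 2627 and 55.0 ± 16.5 TPM (SD, n = 3), a ratio of 69.5, and the difference on the log2(TPM + 1) scale was 5.92 (SE 0.68). FGL00 mouse 3 was well above the other two, so the spread within FGL00 was wide, yet its lowest mouse was far above every FGL40 mouse.

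In males without ascorbate, *Saa1* was also above the reference but at lower levels than in females. It was at 367, 733 and 427 TPM in MGL00 and at 38.1, 46.6 and 42.5 TPM in MGL40. The groups did not overlap, their means were 509 ± 196 and 42.4 ± 4.25 TPM, a ratio of 12, and the log2 difference was 3.49 (SE 0.96). The FGL00 mean was 7.51 times that of MGL00 with no overlap between the sexes, whereas FGL40 and MGL40 overlapped, and whether the change differed between the sexes was not tested for *Saa1*.

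*Saa2* had a pattern over the groups like that of *Saa1*, although the mice within MGL00 and within MGL40 were not in the same order. It was at 855, 1277 and 3535 TPM in FGL00 and at 42.4, 16.3 and 31.5 TPM in FGL40, with a log2 difference of 5.76 (SE 0.77). In MGL00 it was at 114, 281 and 106 TPM and in MGL40 at 17.1, 14.8 and 21.7 TPM, with a log2 difference of 3.02 (SE 0.94). Neither pair of groups overlapped, and the ratios of the means were 62.8 in females and 9.37 in males. The messages of *Saa1* and *Saa2* are nearly identical, and reads that fit both were divided between them by the estimation, so their sum is the safer quantity. The sum of *Saa1* and *Saa2* took 0.285%, 0.391% and 1.04% of all TPM in the FGL00 mice, and its mean was 67.1 times that of FGL40 and 11.2 times MGL40 in the females and males without ascorbate, respectively.

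The share of the 2 genes in their sum was less variable than the level. *Saa1* was above *Saa2* in all 36 mice, with a ratio between 1.46 and 4.02 and a mean ratio of 2.24. The ratio averaged 2.11 in FGL00 and 1.94 in FGL40, and 3.28 in MGL00 and 2.45 in MGL40. MGL00 had the highest group mean of the ratio, between 2.61 and 4.02 in its 3 mice. Over 36 mice, Pearson's r between *Saa1* and *Saa2* was 0.98 on the log2 scale, and 0.98 after group means were subtracted. These mice share tissue, table and groups, and the 2 genes share reads, so the value is a description.

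**Figure D2:**
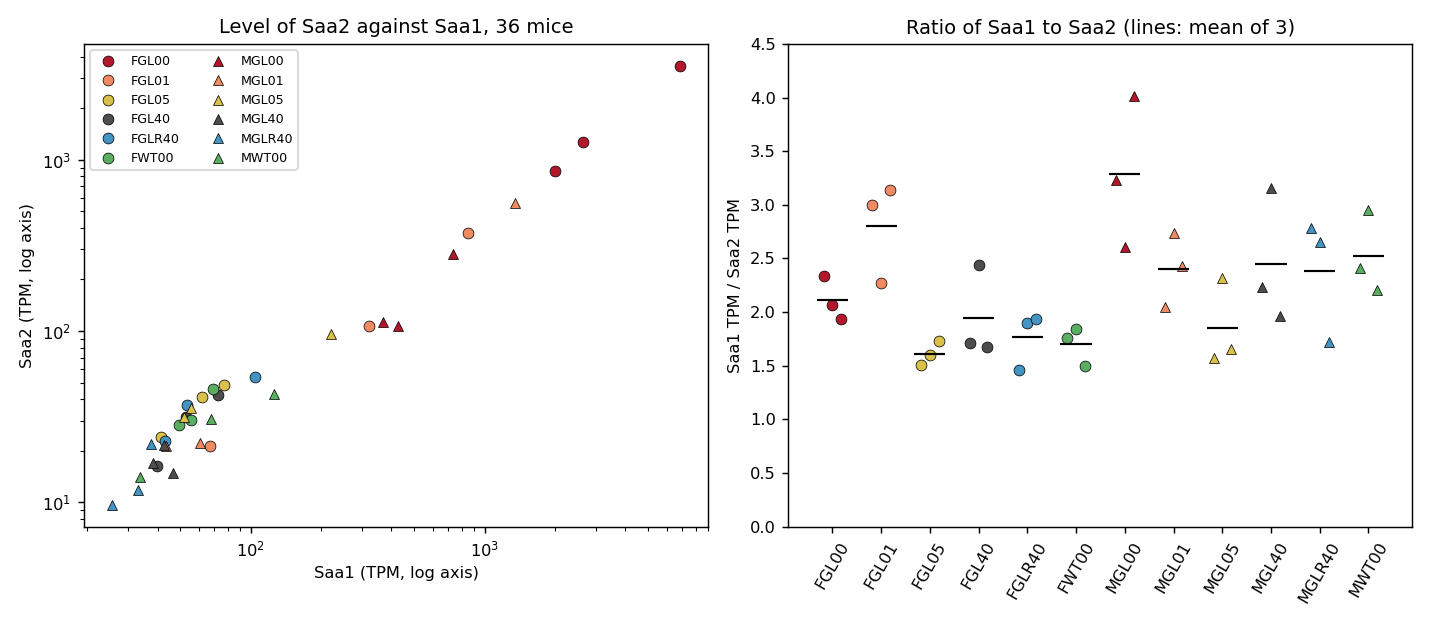
*Saa2* TPM against *Saa1* TPM in the 36 mice (log axes), each point a mouse coloured by its group, and the ratio of *Saa1* to *Saa2* TPM by group with lines for the mean of 3 mice. The points run along a line, with *Saa1* between 1.46 and 4.02 times *Saa2*, from MGLR40 mouse 2 (25.7 TPM of *Saa1*) to FGL00 mouse 3 (6834 TPM).

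*Saa3* was low in every mouse and differed less. It was at 17.3, 35.97 and 17.9 TPM in FGL00 and 15.1, 10.7 and 10.4 TPM in FGL40, a log2 difference of 0.86 (SE 0.44). In MGL00 it was at 33.8, 51.1 and 20.3 TPM and in MGL40 at 12.5, 11.2 and 10.8 TPM, a log2 difference of 1.44 (SE 0.37). The 2 groups did not overlap in either sex, although the lowest FGL00 mouse was only just above the highest FGL40 mouse. MWT00 mouse 2 was at 34.2 TPM, above 2 of the 3 MGL00 mice, so a value of this size was also reached in a wild type mouse.

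*Saa4* was above the reference in males without ascorbate, and in females the groups overlapped. It was at 154, 257 and 198 TPM in MGL00 and at 105, 87.1 and 91.6 TPM in MGL40, with no overlap, a ratio of 2.14 and a log2 difference of 1.06 (SE 0.16). In FGL00 it was at 109, 156 and 85.8 TPM and in FGL40 at 110, 101 and 97.7 TPM, groups that overlapped, with a log2 difference of 0.14 (SE 0.21). The order of the sexes was therefore opposite to that of *Saa1*: the MGL00 mean of *Saa4* was 1.74 times that of FGL00, although these groups overlapped at 154 and 156 TPM. A difference between the sexes in the change of *Saa4* was not tested.

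Mice on 0.01% ascorbate were divided. *Saa1* was at 321, 850 and 67.2 TPM in FGL01, and at 43.6, 60.5 and 1355 TPM in MGL01. In FGL01, mice 1 and 2 were above, and mouse 3 was below, the highest of the 12 females of GL05, GL40, GLR40 and WT00 (104.1 TPM). In MGL01 only mouse 3 was above the highest such male (222 TPM), and the other 2 were among the remaining groups. *Saa2* divided the same mice, at 107, 374 and 21.4 TPM in FGL01 and 21.3, 22.1 and 558 TPM in MGL01. Each gene overlapped GL40 in both sexes. The sum of *Saa1* and *Saa2* was at 64.8, 82.6 and 1913 TPM in MGL01, where mouse 1 was only just above the highest MGL40 mouse (64.2 TPM). The log2 difference of *Saa1* from GL40 was 2.29 in FGL01 (1.45 to 3.27 when single mice were left out) and 1.84 in MGL01, where it was 0.27 without MGL01 mouse 3, so the male value rested on that mouse. All 3 mice of FGL00 and all 3 of MGL00 were above the highest of the 12 other mice of their sex for both *Saa1* and *Saa2*.

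In FGL01, *Saa4* went the other way. It was at 44.2, 78.5 and 72.3 TPM, below every FGL40 mouse, with a ratio of 0.633 and a log2 difference of -0.69 (SE 0.21). *Saa4* was also below every FGL40 mouse in FGL05 (71.9, 90.6 and 90.3 TPM) and in FGLR40 (68.8, 69.0 and 88.8 TPM), with log2 differences of -0.29 and -0.45. In MGL01 it was at 90.3, 109 and 103 TPM and overlapped MGL40. *Saa3* in the GL01 mice was at 6.99, 32.7 and 10.7 TPM in females and 8.04, 6.24 and 14.6 TPM in males, and overlapped GL40 in both, with FGL01 mouse 2 the only high value.

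With 0.05% ascorbate, *Saa1* and *Saa2* overlapped the reference in females and were above it in every male. *Saa1* was at 62.0, 76.8 and 41.3 TPM in FGL05, which overlapped FGL40, with a log2 difference of 0.12 (SE 0.68). In MGL05 it was at 55.4, 222 and 52.0 TPM, above every MGL40 mouse, with a ratio of means of 2.58 and a log2 difference of 1.01 (SE 0.96), which was 0.34 without MGL05 mouse 2. *Saa2* was at 35.3, 95.5 and 31.4 TPM in MGL05, also above every MGL40 mouse, with a ratio of 3.03 and a log2 difference of 1.38 (SE 0.94; 0.88 without mouse 2). In FGL05 it was at 41.2, 48.1 and 23.9 TPM and overlapped FGL40. *Saa3* was between 8.47 and 15.3 TPM in FGL05 and between 11.5 and 21.0 TPM in MGL05, and *Saa4* was between 78.0 and 109 TPM in MGL05, each overlapping GL40.

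After ascorbate was returned, *Saa1* and *Saa2* overlapped, or were below, the levels of mice kept on 0.4% ascorbate. *Saa1* was at 53.6, 43.2 and 104.1 TPM in FGLR40, overlapping FGL40, and at 33.0, 25.7 and 37.5 TPM in MGLR40, below every MGL40 mouse. The sum of *Saa1* and *Saa2*, however, was between 35.3 and 59.3 TPM in MGLR40 and overlapped MGL40 (55.2 to 64.2 TPM). Compared with the depleted mice, the GL00 mean of *Saa1* was 57.1 times that of GLR40 in females and 15.9 times in males, with no overlap. The GL00 means of *Saa2* were 50.0 and 11.6 times those of GLR40. *Saa2* itself was at 36.8, 22.8 and 53.9 TPM in FGLR40 and at 11.8, 9.68 and 21.8 TPM in MGLR40. *Saa3* was between 9.69 and 24.7 TPM in FGLR40, and between 7.27 and 9.98 TPM in MGLR40, where every mouse was below every MGL40 mouse. The MGL00 means of *Saa3* and *Saa4* were 4.11 and 2.06 times those of MGLR40, with no overlap. In females the same ratios were 1.41 and 1.55, and FGL00 and FGLR40 overlapped for both genes. FGLR40 was above MGLR40 for *Saa1* (2.09 times) and *Saa2* (2.62 times) without overlap, whereas *Saa4* was lower in FGLR40 than in any MGLR40 mouse.

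Wild type mice without ascorbate in the water overlapped GL40 for all 4 genes. *Saa1* was at 49.6, 55.4 and 69.0 TPM in FWT00 and at 33.8, 126 and 67.6 TPM in MWT00, with log2 differences of 0.10 and 0.64 from GL40. In MWT00, 2 of the 3 mice were above every MGL40 mouse for *Saa1*, *Saa2* and *Saa3*, with ratios of means of 1.79, 1.64 and 1.81. *Saa2* was at 28.2, 30.1 and 46.0 TPM in FWT00 and at 14.0, 42.9 and 30.7 TPM in MWT00. *Saa3* was between 13.1 and 18.7 TPM in FWT00 and at 12.3, 34.2 and 16.1 TPM in MWT00. *Saa4*, between 93.3 and 112 TPM in FWT00 and between 91.6 and 119 TPM in MWT00, was near its GL40 level in both sexes. MWT00 mouse 2 was the highest of its group for *Saa1*, *Saa2* and *Saa3*. By mean *Saa1*, the groups ran from FGL00 (3823 TPM) through MGL00 (509 ± 196), MGL01 (486 ± 752), FGL01 (413 ± 399) and MGL05 (110 ± 96.9) to MGL40 (42.4 ± 4.25) and MGLR40 (32.03 ± 5.96). Neighbours in the order of the 12 groups overlapped except FGL00 with MGL00, and MGL40 with MGLR40. In the order by the sum of *Saa1* and *Saa2*, only FGL00 with MGL01 did not overlap. For *Saa2* only FGL00 with MGL01, and MGL00 with MGL05, did not overlap, and for *Saa3* and *Saa4*, both highest in MGL00, all neighbours overlapped.

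**Figure D3:**
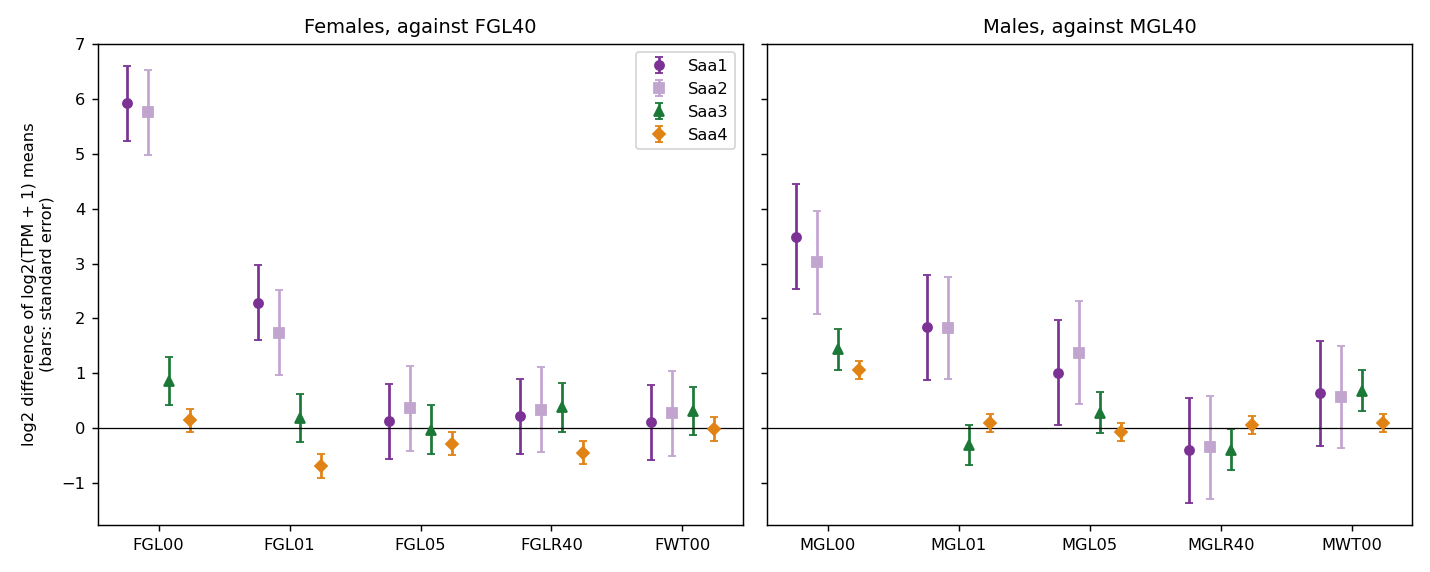
Differences of the 4 genes from GL40 of the same sex on the log2(TPM + 1) scale (points), with standard errors from the fit across all genes (bars). *Saa1* and *Saa2* are far above 0 in FGL00 (5.92 and 5.76) and MGL00 (3.49 and 3.02), *Saa4* is above 0 in MGL00 (1.06) and below it in FGL01 (-0.69), and the GLR40 and WT00 values lie between -0.45 and 0.68.

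Leaving out the FGL40 mouse with pancreas transcripts gave log2 differences in FGL00 of 5.72 for *Saa1*, 5.39 for *Saa2*, 0.79 for *Saa3* and 0.13 for *Saa4*. Markers of neutrophils were higher in the groups without ascorbate in both sexes, those of erythroid cells only in the females, and those of Kupffer cells without overlap only in the males. The male rise was not particular to these cell types. Summed markers of hepatocytes (85481 to 89948 against 67722 to 78332 TPM) were also above every MGL40 mouse in MGL00. The same held for stellate cells and fibroblasts (255 to 299 against 218 to 239 TPM), monocytes and lymphocytes, and each of these lists overlapped in females. The 11 neutrophil markers, all found, summed to 49.5, 98.4 and 84.0 TPM in FGL00, against 13.9 to 16.6 TPM in FGL40, and to 56.3, 33.3 and 16.3 TPM in FGL01. In MGL00 they summed to 21.3, 25.0 and 13.3 TPM, against 5.17 to 12.2 TPM in MGL40, while MGL05 mouse 2 reached 16.7 TPM. None of the 11 was at 0 throughout FGL00. The 6 erythroid markers found of 7 listed summed to 1933, 3255 and 3428 TPM in FGL00 and 627 to 753 TPM in FGL40, but to 488 to 726 TPM in MGL00 and 419 to 649 TPM in MGL40. In FGL01 they were at 540 and 585 TPM in mice 1 and 2, where *Saa1* was high, and at 1027 TPM in mouse 3, where it was low. The 12 Kupffer cell markers were at 505 to 811 TPM in FGL00 and 541 to 605 TPM in FGL40, and at 464 to 561 TPM in MGL00 and 294 to 388 TPM in MGL40. Their part in the SAA levels was not tested, and in whole liver more cells of a type and more RNA per cell cannot be told apart.

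Of the cytokines known to induce SAA in the liver, *Il6* and *Tnf* were at lower TPM than *Il1a* and *Il1b*. Of these, only *Tnf* in males passed the test in GL00 against GL40. *Il6*, *Il1b* and *Tnf* did not pass the test in FGL00 against FGL40 (limma on log2(TPM + 1), Benjamini-Hochberg adjusted p = 0.573, 0.652 and 0.323). *Il6* was at 0.119, 0 and 0.355 TPM in FGL00 and 0.110, 0 and 0.0544 TPM in FGL40, and in males it was above 0 in too few mice to be tested. *Tnf* was at 0.510, 0.676 and 0.302 TPM in MGL00 and 0.171, 0.121 and 0.153 TPM in MGL40 (log2 difference 0.37, adjusted p = 0.0124, 0.0560 without MGL00 mouse 2). *Il1b* was at 1.80, 5.26 and 8.64 TPM in FGL00 and 2.46, 6.27 and 2.65 TPM in FGL40, and between 3.79 and 4.10 TPM in MGL00 and 3.27 and 5.98 TPM in MGL40, groups that overlapped in both sexes. Its highest value was 11.7 TPM, in FGL01 mouse 2. *Il1a* was at 4.70 and 2.79 TPM in FGL00 and FGL40 (adjusted p = 0.141) and at 3.73 and 2.71 TPM in MGL00 and MGL40 (adjusted p = 0.119). Levels in whole liver say nothing of cytokines made elsewhere.

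Of the list of SAA inducers and their receptors, 4 of 21 genes were higher and 3 lower in FGL00, where 9.56% of all 18050 genes tested were higher and 13.7% lower. In MGL00, 9 of 19 were higher and 1 lower, against 9.85% and 2.45% of 17661 genes. Genes of this list that rose in both sexes were *Lbp*, which carries bacterial lipopolysaccharide to its receptor, *Tnfrsf1a*, a tumor necrosis factor receptor, and *Il6ra*, the ligand-binding chain of the interleukin-6 receptor. *Lbp* was at 175 ± 11.6 TPM in FGL00 and 95.4 ± 2.87 in FGL40 (log2 difference 0.86, adjusted p = 0.000375), and at 153 ± 13.6 in MGL00 and 70.4 ± 8.14 in MGL40 (1.11). *Il6ra* was at 32.7 and 18.6 TPM in females (log2 difference 0.77) and at 30.1 and 9.64 TPM in males (1.58). *Il6st*, of the same list, passed the test in both sexes but rose only in males (0.35, adjusted p = 0.0280). Its female minus male change was -0.67 (adjusted p = 0.0023 for the interaction). *Lifr*, a receptor of the interleukin-6 family, fell in both, by 1.89 in females (adjusted p = 0.000314) and by 1.38 in males (adjusted p = 0.000859) on the log2 scale. *Il1r1*, which binds interleukin-1, rose in females (0.76, adjusted p = 0.00277), while in males its log2 difference was 0.67 with an adjusted p of 0.198.

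The signalling genes downstream of these receptors included some that rose in both sexes. *Stat3*, the transcription factor of interleukin-6 signalling, was at 125, 132 and 114 TPM in FGL00 and 53.4, 53.0 and 67.3 TPM in FGL40 (log2 difference 1.09, adjusted p = 0.000486). In males it was at 112, 120 and 101 TPM in MGL00 and 43.2, 49.0 and 45.0 TPM in MGL40 (1.26, adjusted p = 0.00113). *Socs3*, the feedback inhibitor that STAT3 induces, was at 32.2, 38.7 and 47.6 TPM in FGL00 and 8.64, 8.86 and 10.8 TPM in FGL40 (1.95, adjusted p = 0.000448). No FGL00 mouse overlapped a control for either gene. In MGL00 the log2 difference of *Socs3* was 1.04 (adjusted p = 0.0304), which rose above 0.05 when any of 5 of the 6 mice was left out, up to 0.108 without MGL00 mouse 2.

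Of the C/EBP genes, *Cebpb* and *Cebpd* passed the test in both sexes and *Cebpa* in neither (log2 differences of -0.26 in FGL00 and -0.11 in MGL00, adjusted p = 0.295 and 0.551). *Cebpb* was at 198, 230 and 248 TPM in MGL00 and 90.0, 72.5 and 98.4 TPM in MGL40 (log2 difference 1.37, adjusted p = 0.000104), and *Cebpd* was at 5.89 and 1.84 TPM (1.28, adjusted p = 0.000427). In FGL00, *Cebpb* was at 143, 186 and 157 TPM and in FGL40 at 102, 94.8 and 113 TPM (0.64, adjusted p = 0.0387). The female call of *Cebpb* was lost with any of 5 of 6 mice left out and that of *Cebpd* (0.74, adjusted p = 0.0348) with any of 4, up to 0.133 and 0.153 without FGL00 mouse 2. Of all genes tested, 9.56% were higher and 13.7% lower in FGL00, and 9.85% and 2.45% in MGL00. Of the 30 transducers and transcription factors, 6 were higher and 4 lower in FGL00, the count of lower genes being near that share. The median log2 difference was -0.01 against -0.02 for all genes. In MGL00, 8 were higher and none lower, with a median of 0.20 against 0.07. Of the 8 in males, *Nfkbia* and *Myd88* lost their calls when TPM was rescaled by median ratios or without the major urinary protein genes.

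Other positive acute phase genes, whose products rise in plasma during inflammation, were higher as a group. Of 32 such genes, 23 were higher and 2 lower in FGL00, against 9.56% and 13.7% of all genes tested. In MGL00, 27 were higher and none lower, against 9.85% and 2.45%. The median log2 difference was 0.91 against -0.02 for all genes in FGL00, and 1.18 against 0.07 in MGL00. The list was chosen with earlier results of these data known. All 23 of the female genes were among the 27 of the males (85.2% of these). The remaining 4 were *Crp*, *Ifitm3*, *Il1rn* and *Steap4*. *Hpx*, which binds free heme, was at 7158, 8567 and 7447 TPM in FGL00 and 2218, 2282 and 2420 TPM in FGL40 (log2 difference 1.74, adjusted p = 1.34e-05), and at 5653, 7175 and 6941 TPM in MGL00 and 2091, 2078 and 2169 TPM in MGL40 (1.63, adjusted p = 0.000981). *Hp*, which binds free hemoglobin, was at 7435 ± 1105 and 2845 ± 146 TPM in females (1.38) and 6254 ± 723 and 2572 ± 263 TPM in males (1.28). The fibrinogen chain *Fga* and complement *C3* also rose in both sexes, by log2 differences of 0.90 and 0.62 in females and 1.198 and 1.15 in males. The male call of *Fga* had an adjusted p of 0.0574 without MGL00 mouse 2.

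Some acute phase genes, named after their values were seen, had log2 differences nearer those of *Saa1*, or above them in males. In MGL00, *Mt2*, *Lcn2* and *Mt1* (4.57) were above *Saa1* (3.49), and *Fgl1* and *Orm3* (3.46) were near it. *Lcn2*, which binds bacterial siderophores, was at 488, 592 and 403 TPM in FGL00 and 34.1, 36.4 and 57.2 TPM in FGL40 (log2 difference 3.53, adjusted p = 0.00278). In males it was at 59.1, 147 and 136 TPM in MGL00 and 1.84, 5.12 and 4.09 TPM in MGL40 (4.58, adjusted p = 0.00765). *Mt2*, a metal-binding metallothionein, was at 744 ± 461 TPM in MGL00 and 9.47 ± 4.68 in MGL40 (6.04) and at 2697 ± 884 TPM in FGL00 and 411 ± 205 in FGL40 (2.76). *Orm2*, *Apcs*, *Fgl1* and *Serpina3n* had log2 differences of 2.86, 2.71, 2.41 and 2.23 in FGL00 and 2.62, 3.04, 3.50 and 1.88 in MGL00.

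*Hamp*, which encodes the iron hormone hepcidin and is itself induced by STAT3, fell in females. It was at 135, 272 and 232 TPM in FGL00 and 3729, 5001 and 4180 TPM in FGL40, a fall of 4.38 on the log2 scale (adjusted p = 4.5e-07), in the same mice in which the erythroid markers were high, whose part was not tested. In MGL00 it was at 4140, 3100 and 1482 TPM and overlapped MGL40 (adjusted p = 0.860). The change of *Hamp* differed between the sexes by -4.50 (adjusted p = 1.05e-06 for the interaction). *Hamp* also passed the test in FGL01 against FGL40, where the erythroid markers were at 540, 585 and 1027 TPM. In MGL01 it was at 1218 to 1516 TPM, below every MGL40 mouse (1625 to 3596 TPM, log2 difference -0.84, limma adjusted p = 0.169). *Crp*, which is a weak acute phase gene in mice, had a log2 difference of -0.62 in FGL00 (adjusted p = 0.0527).

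**Figure D4:**
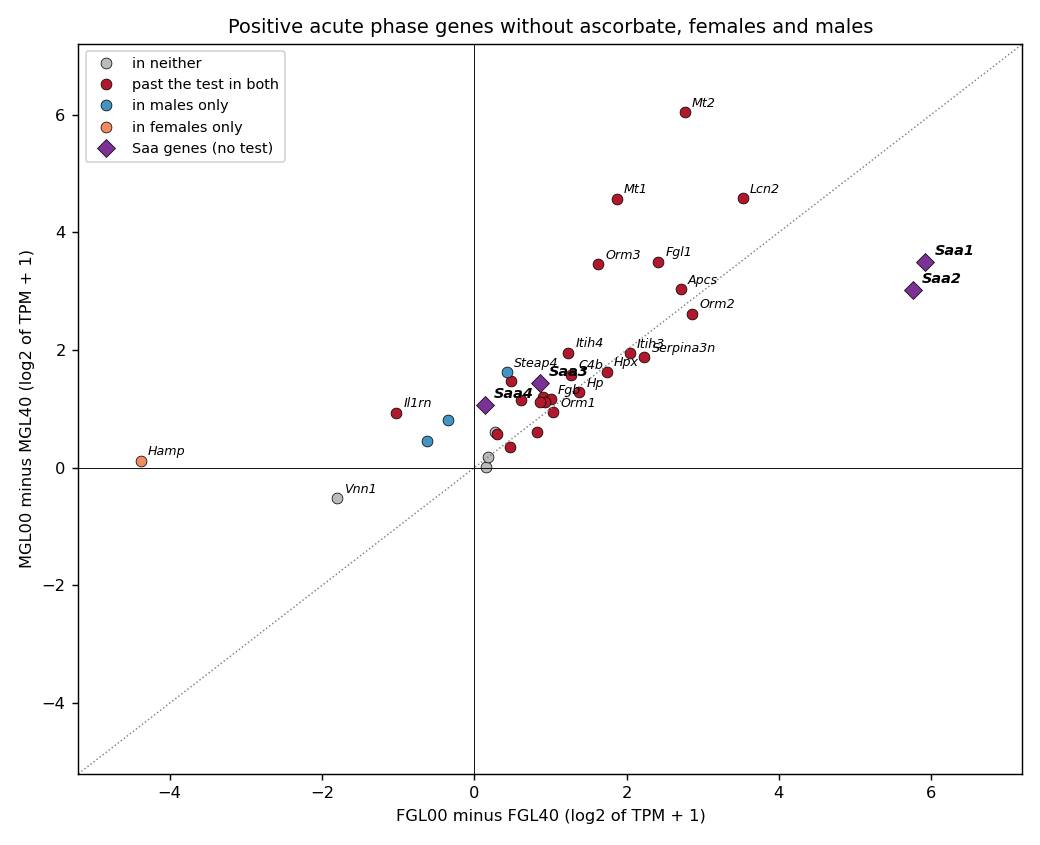
Log2 differences between GL00 and GL40 in males (vertical) against females (horizontal) for the 32 other positive acute phase genes (circles, coloured by the sex in which they passed the test in either direction) and the 4 SAA genes (diamonds, not tested), with a dotted line of equality. *Saa1* and *Saa2* lie to the right of the line (5.92 against 3.49 for *Saa1*), *Mt2* lies to the left (2.76 against 6.04), and *Hamp* is far to the left at -4.38 in females and 0.12 in males.

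On 0.01% ascorbate, 13 of the 32 acute phase genes were higher and 4 lower in FGL01 (14.3% and 5.58% of all genes tested), with a median log2 difference of 0.42 against 0.07. *Hpx* was at 7295, 6047 and 3783 TPM (log2 difference 1.26, adjusted p = 0.000215), lowest in the same mouse 3 in which *Saa1* was low. *Stat3* was at 138, 89.4 and 70.5 TPM (0.72, adjusted p = 0.00903). In MGL01, 1 acute phase gene, *Mt2*, was higher and none lower (1.96% and 1.46% of all genes). It was at 52.0, 69.0 and 978 TPM (3.99, adjusted p = 0.0268), and its call was lost without MGL40 mouse 1 or mouse 3. MGL01 mouse 3, the mouse with 1355 TPM of *Saa1*, had 4928 TPM of *Hpx*, 190 TPM of *Lcn2* and 83.9 TPM of *Stat3*, each the highest of its group.

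None of the 32 acute phase genes passed the test in FGL05, FGLR40, FWT00, MGL05, MGLR40 or MWT00 by limma, where 0%, 2.27%, 0.183%, 0.0566%, 0.00566% and 0.453% of all genes did. At an unadjusted p under 0.05, the same comparisons held 1, 6, 0, 1, 3 and 0 of the 32. Over all 6 lists only *Nfkbia*, *Igfals* and *Ldha* passed in FGLR40, and each lost its call with any of the 6 mice left out. A gene that did not pass was not always at the reference level. *Hpx*, for example, was at 2880, 2990 and 2865 TPM in FGLR40, above every FGL40 mouse (2218 to 2420 TPM).

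Genes whose products fall in plasma during the acute phase did not fall as a group. Of 13 such genes, 5 were higher and 1 lower in FGL00, where 9.56% of all genes tested were higher and 13.7% lower. In MGL00, 3 were higher and 1 lower, against 9.85% and 2.45% of all genes. The median log2 difference was 0.24 against -0.02 for all genes in FGL00, and 0.18 against 0.07 in MGL00. *Apoa1*, the main protein of HDL, which SAA displaces, was at 15477 ± 1678 TPM in FGL00 and 8012 ± 926 TPM in FGL40 (log2 difference 0.95, adjusted p = 0.00553), and in MGL00 its difference was 0.58 (adjusted p = 0.120). *Tfr2*, an iron sensor, rose in both (0.63 and 0.49). *Serpinc1*, or antithrombin, fell by 0.33 in FGL00 (adjusted p = 0.00796), and *Apoa4* fell by 1.65 in MGL00 (adjusted p = 0.00199). *Alb* and *Ttr*, the classical negative reactants, had log2 differences of -0.23 and 0.24 in FGL00 and did not pass (adjusted p = 0.104 and 0.170).

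Among 23 genes for SAA receptors, HDL partners and clearance, 4 were higher and 3 lower in FGL00 (median log2 difference -0.06) and 7 higher and 1 lower in MGL00 (0.32). Of all genes, 9.56% were higher and 13.7% lower in FGL00, so the count of lower genes was near the share over all genes, and 9.85% and 2.45% in MGL00. *Scarb1*, the HDL receptor that also binds SAA, was at 139 ± 23.4 and 145 ± 25.9 TPM in FGL00 and FGL40 (adjusted p = 0.827) and had a difference of 0.09 in males (adjusted p = 0.738). *Ctsl*, a lysosomal protease, was at 1204 and 453 TPM in females (log2 difference 1.41, adjusted p = 0.000771). *Lipc*, the hepatic lipase that acts on HDL, fell by 1.63 in females (adjusted p = 0.000126) and by 0.60 in males (adjusted p = 0.0240, and up to 0.109 when single mice were left out, without MGL00 mouse 3). The HDL enzymes *Pon1* and *Lcat* rose in males (0.55 and 0.39, adjusted p = 0.00247 and 0.00165).

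Of 10 genes beside the SAA cluster tested in females, 2 were higher and 1 lower in FGL00 (9.56% and 13.7% of all genes), and of 9 in males 1 was higher in MGL00 (9.85% of all genes). *Ldha*, a subunit of lactate dehydrogenase, was at 988 ± 169 TPM in FGL00 and 570.5 ± 8.43 TPM in FGL40 (log2 difference 0.78, adjusted p = 0.00621), and in males its difference was 0.38 (adjusted p = 0.122).

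Over the 36 mice, the genes with the pattern most like that of *Saa1* among 8348 with a mean of at least 5 TPM were *Hpx* (Pearson's r = 0.91), *Pros1*, *Serping1*, *Lrg1*, *Serpina3n*, *Hp*, *Itih3*, *Stat3*, *Cd302* and *Qsox1* (0.90 to 0.87). The lowest r were those of *Fam149a* (-0.90), *Atat1* (-0.88), *A1cf* (-0.87), *Nsun4* (-0.87) and *Sfxn5* (-0.86). When group means were subtracted, 3 of the 10 stayed among the first 10, and *Lcn2* (0.83), *Orm2* (0.80) and *Mt2* (0.80) led. For *Saa4*, the most similar were *Apon* and *Serpina10* (0.71 each), *Cenpx*, *C4bp* and *Slc39a14* (0.69 to 0.65), and none of the 5 stayed among the first 5 after group means were subtracted. *Saa1* and *Saa4* had an r of 0.30 with each other, and *Saa1* and *Saa3* of 0.57. These values describe mice that share groups and 1 table.

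**Figure D5:**
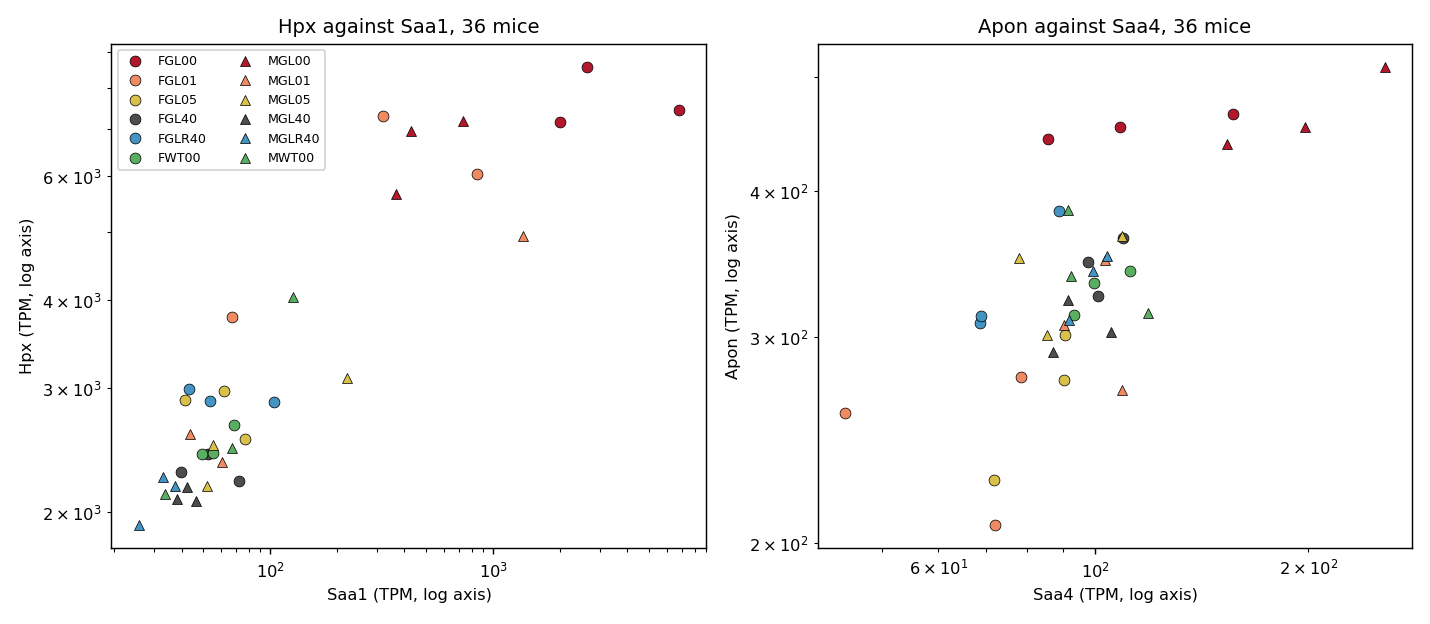
*Hpx* against *Saa1* and *Apon* against *Saa4* in TPM in the 36 mice (log axes), each point a mouse marked by group and sex. *Hpx* and *Saa1* (r = 0.91) are high together in the GL00 groups, in 2 FGL01 mice and in MGL01 mouse 3, whereas *Apon* and *Saa4* (r = 0.71) are both highest in MGL00 mouse 2.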

How the data were processed

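Whole-liver RNA from 36 mice, 3 per group, was sequenced after stranded library preparation, and reads were trimmed (fastp 0.20.0) and assigned to Ensembl 104 transcripts (kallisto 0.46.2) by the authors, who deposited TPM per gene, 26409 of 36066 rows with a symbol. TPM keep no depth, and the precision rests on 3 mice a group. Here log2(TPM + 1) was fitted with 1 mean per group for each sex (18 mice) in limma 3.58.1 (trend, robust; R 4.3.3), over genes above 0 in at least 13 mice, 18050 in females and 17661 in males, with adjusted p under 0.05 as the threshold. The sex interaction was fitted on 36 mice. Each sample was 1 animal per the labels. The script was tested on simulated data. Promoters came from RefSeq GRCm38.p6.

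Members and lists were chosen with earlier results of these data known. Named genes were up to 4 of each list past the test with the largest mean TPM, up to 2 not past it in GL00, *Il6*, *Il1b*, *Tnf*, *Stat3*, *Socs3*, *Cebpb*, *Cebpd* and *Scarb1*, and those most like *Saa1* or *Saa4*; for brevity not all are printed, and 1 of them is not reported here. Alternatives were a pseudocount of 0.1, other filters, scaling by median ratios or without major urinary protein genes, fits of the 2 groups alone, no trend, a ratio above 2, and each mouse left out.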

Additional observations from a re-analysis of the deposited data

Results flagged for a closer look

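The change from GL40 to GL00 differed between females and males for 24 of 123 list genes tested (interaction in limma over 18336 genes, of which 13.3% passed). The female change was higher in 3 of the 24 and lower in 21. Among all genes that passed it was higher in 437 and lower in 2000, so the direction in the lists was near that of all genes. With median-ratio scaling the split was 974 and 951 for all genes, and 6 and 16 for the lists. The values of 16 of the 24 list genes, which the rule for named genes covers, are given as the female minus the male log2 change, and *Steap4*, outside that rule, had -1.20 (adjusted p = 0.0146). No SAA gene was tested. The largest was *Hamp* (-4.50, adjusted p = 1.05e-06). Lower female changes were found for the cytokine signalling genes *Il1rn* (-1.96, adjusted p = 0.00155), *Tnfrsf1b* (-1.16, 0.00812), *Nfkbia* (-0.68, 0.00566), *Il6st* (-0.67, 0.0023) and *Tnfrsf1a* (-0.50, 0.00834). The same held for the acute phase genes *Mt2* (-3.28, adjusted p = 0.0449), *Ifitm3* (-1.16, 0.00743) and *Crp* (-1.08, 0.00782), and for *Serpina6* (-1.75, 0.00833), *Serpinc1* (-0.51, 0.000997), *Lipc* (-1.04, 0.0123), *Pon1* (-0.59, 0.00582), *Apoc1* (-0.56, 0.00117) and the SAA neighbour *Saal1* (-0.62, 0.00662). *Apoa4* had the higher female change (1.76, adjusted p = 0.00535). With median-ratio scaling, *Mt2* (0.0677), *Pon1* (0.0776) and *Tnfrsf1a* (0.185) no longer passed, and *Mt2* was also lost with any of 9 of 12 mice left out.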

How the results depend on the processing

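Leaving out single mice gave differences of GL00 from GL40 of 5.40 to 6.29 (*Saa1*), 5.17 to 6.20 (*Saa2*), 0.53 to 1.04 (*Saa3*) and -0.09 to 0.34 (*Saa4*, below 0 without FGL00 mouse 2) in females, and 3.20 to 3.70, 2.57 to 3.27, 1.13 to 1.77 and 0.88 to 1.25 in males. In MGL05 they were 0.34 to 1.37 (*Saa1*) and 0.88 to 1.67 (*Saa2*). In GL01 they were 1.45 to 3.27 (*Saa1*), 0.76 to 2.80 (*Saa2*) and -0.42 to 0.62 (*Saa3*, below 0 without FGL01 mouse 2) in females, and 0.27 to 2.74 and 0.28 to 2.61 (*Saa1* and *Saa2*, lowest without MGL01 mouse 3) in males.

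Requiring a ratio of means above 2 besides the test, the list genes called fell from 55 to 26 in FGL00, 36 to 16 in FGL01, 3 to 0 in FGLR40, 55 to 30 in MGL00 and 8 to 4 in MGL01, and the acute phase genes higher from 23 to 15 in FGL00 and 13 to 6 in FGL01. Fits of the 2 groups alone gave 22 list genes in FGL01, 8 in FGLR40 and 0 in MGL01, with 8 and 0 acute phase genes higher in FGL01 and MGL01. Without a filter, 0 were called in FGLR40 and 5 in MGL01. With mice left out, list genes called ranged from 0 to 0 in FGLR40, 1 to 7 in MGL01 and 0 to 1 in MWT00, and acute phase genes higher in MGL01 from 0 to 3. Of the genes like *Saa1*, 3 of 10 stayed on residuals. Of those like *Saa4*, 0 of 5 stayed on residuals and 3 of 5 without the 2 farthest mice.

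Median-ratio scaling turned the split of all called genes from 1740 higher and 432 lower to 702 and 925 in MGL00 (list genes 52 and 3 to 38 and 4), from 2584 and 1008 to 1356 and 1767 in FGL01 (24 and 12 to 17 and 18), from 347 and 258 to 235 and 357 in MGL01 (5 and 3 to 3 and 4), from 297 and 113 to 77 and 186 in FGLR40 (2 and 1 to 0 and 3), and from 437 and 2000 to 974 and 951 for the sex difference (3 and 21 to 6 and 16). The cause was not tested. No paired analysis was possible because the labels give the mice no replicate numbers shared between groups. TPM without counts give no depth, so low genes such as *Il6* have unknown counting error.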
